A study of Homo sapiens with 6 samples.

Results

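The genes of the cytosolic ribosomal proteins were followed by RNA-seq in DLD-1 cells, which derive from a human colorectal adenocarcinoma. Members were the protein-coding genes whose symbols are RPL or RPS followed by a number, with or without the suffix A, L, AL or X, together with RPLP0, RPLP1, RPLP2 and RPSA. A member also had to exceed a level of 1 CPM (the count scaled to the same library total) in at least 3 libraries. Of 82 genes with such symbols, 79 passed, among 16974 genes that passed the same filter and 58051 genes in the table. They were 47 genes of the large subunit, 3 of them of the acidic stalk, and 32 genes of the small subunit. In these cells both TPR alleles carried an auxin-inducible degron and the fluorescent protein NeonGreen, and the auxin receptor TIR1 was expressed from the RCC1 locus, so that auxin triggers destruction of TPR, a protein of the basket that the nuclear pore bears on its inner side. The 6 cultures were of this line and received 200 nM Leptomycin B, an inhibitor of the export receptor CRM1, for 3 h, as the sample characteristics and the study's methods give it, whereas the sample titles give 2 h. The LMB group (3 libraries) received nothing else, and the LMB+auxin group (3 libraries) received 1 mM auxin for the last 2 h. Every comparison is LMB+auxin against LMB and asks how RNA levels differ once TPR is depleted while CRM1 is inhibited. Auxin by itself and cells without Leptomycin B were not analysed here.

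A ribosome is built from a small subunit, which reads the mRNA, and a large subunit, which joins amino acids, and most of its proteins are used in equal number. The messages of these proteins are among the most abundant of growing cells, and most begin with a 5′ terminal oligopyrimidine (TOP) tract, a C followed by a run of pyrimidines, through which the kinase mTOR and the protein LARP1 govern their translation. New ribosomal proteins are imported into the nucleus, joined to ribosomal RNA in the nucleolus, and leave through the nuclear pore as part of pre-ribosomal particles in a step that uses CRM1. The RNA levels described below do not measure any of these protein steps.

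Total counts per library ran from 28261903 to 35992425. The epithelial genes EPCAM (468 to 497 CPM), KRT8 (3202 to 3635 CPM) and CDX2 (130.2 to 153 CPM) were present in all 6 libraries, whereas the intestinal genes CDX1 (0 to 0.031 CPM) and LGALS4 (0.14 to 0.34 CPM) were nearly absent (CPM of the library total, without TMM scaling between libraries). TPR RNA itself was at 163, 157 and 180.4 CPM in LMB and at 192, 185 and 187 CPM in LMB+auxin, which does not check the depletion, since the degron acts on the protein. Its log2 fold change was 0.17 ± 0.047 (SE) with the replicate number as a term of the fit (adjusted p = 0.014, edgeR). Without that term it was 0.17 ± 0.071 (adjusted p = 0.95), and both are under 1.3-fold. The study's methods call its RNA-seq replicates independent biological ones, and neither they nor the labels say what libraries with equal replicate numbers share. Libraries with the same replicate number deviated together over all tested genes, though over the members alone those of number 3 did not. Because of the pattern over all tested genes, each comparison was also fitted with the replicate number as a term. The value of that fit is given wherever it changes a count or a call.

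RefSeq start sites were matched for 64 of the 79 members, and the TOP tract could be read in most of them. The first transcribed base was C and the next 4 bases were pyrimidines in 42 of the 64 members (65.6%), in 5.46% of 10133 matched protein-coding genes that passed the filter and in 4.04% of all 27305 promoters in the table. A pyrimidine run of at least 7 bases that reached to within 10 bases of the start site was present in 81.3% of the members and in 19.6% of the protein-coding genes that passed the filter. The letters TCT with the C at the start site, which spell the initiator known from ribosomal protein genes, were found in 13 of 64 members (20.3%), against 2.33% of the same protein-coding genes. The letters CCGGAAG, searched on both strands over 250 bases before and 50 after the start, were found in 34.4% of the members, against 19.5%. The letters TATAAA between 40 and 16 bases before the start were found in 2 members, RPLP0 and RPS28 (3.13%), against 1.85%. Windows from 40 bases before to 20 bases from the start site (GRCh38.p14) are shown for RPLP0, the member with the highest count, for RPL7A, which had the longest run, for RPL3 and RPL28, which differed most between replicates, for RPL21, RPL24 and RPL9, which had the highest fold changes with the replicate number in the fit among the matched large-subunit members, for RPS15 and RPS28 at the low end, and for RPS27L, which had the lowest level. Capitals mark the pyrimidine run that holds the start site, and a window without capitals starts with a purine.

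RPLP0 (chr12:120201092-120201151, minus strand): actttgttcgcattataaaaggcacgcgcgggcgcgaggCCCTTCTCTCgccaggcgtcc
RPL7A (chr9:133348178-133348237, plus strand): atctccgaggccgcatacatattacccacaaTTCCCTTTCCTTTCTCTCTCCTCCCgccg
RPL3 (chr22:39319604-39319663, minus strand): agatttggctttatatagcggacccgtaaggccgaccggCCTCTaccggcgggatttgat
RPL28 (chr19:55385892-55385951, plus strand): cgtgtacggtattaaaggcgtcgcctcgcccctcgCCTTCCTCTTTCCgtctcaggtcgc
RPL21 (chr13:27251518-27251577, plus strand): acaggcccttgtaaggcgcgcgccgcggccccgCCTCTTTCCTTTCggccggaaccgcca
RPL24 (chr3:101686699-101686758, minus strand): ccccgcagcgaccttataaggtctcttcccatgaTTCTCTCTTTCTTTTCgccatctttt
RPL9 (chr4:39458903-39458962, minus strand): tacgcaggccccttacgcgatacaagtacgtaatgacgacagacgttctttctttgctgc
RPS15 (chr19:1438356-1438415, plus strand): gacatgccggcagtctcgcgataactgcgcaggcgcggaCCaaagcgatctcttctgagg
RPS28 (chr19:8321456-8321515, plus strand): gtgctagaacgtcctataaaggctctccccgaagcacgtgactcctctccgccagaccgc
RPS27L (chr15:63157458-63157517, minus strand): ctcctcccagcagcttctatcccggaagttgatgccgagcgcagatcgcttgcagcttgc

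RPL7A begins inside a run of 25 pyrimidines, RPL28 and RPL21 inside runs of 13, and RPLP0 inside a run of 10. RPL3 has a run of 5 that ends 4 bases into the transcript, RPS15 a run of 2, and the windows of RPL9, RPS28 and RPS27L start with a purine at the RefSeq site. A tract that begins a few bases away, such as the run after the start of RPL9, was not counted as a C start. In some members the RefSeq site lies far from the start of the annotated canonical transcript. The distance was 312 bases in RPL10, 587 in RPL15, 785 in RPS27A, 1837 in RPL6 and 12330 in RPS29. None of these counted as a C start, so the share with a TOP tract may be understated.

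The members together took 5.20%, 5.81% and 5.39% of all counts in LMB replicates 1 to 3, and 5.28%, 5.82% and 5.43% in LMB+auxin replicates 1 to 3. Summed over members and scaled by TMM, this was 50946, 59137 and 53929 CPM in the LMB libraries and 51835, 59973 and 54889 CPM with auxin (54670.3 ± 4146 and 55565 ± 4111, SD, n = 3 each). Within replicate pairs 1 to 3 the sum was higher with auxin by 889, 836 and 960 CPM (895 ± 62.4, SD of 3 pairs), while the spread between replicate numbers was wider, so that the groups overlapped. The closeness of these 3 differences depends on the TMM scaling. In pair 2 the unscaled shares were 5.81% and 5.82%, and the TMM factors were 0.986 in LMB and 0.973 in LMB+auxin. The summed CPM of the large subunit over that of the small subunit came to 1.45 ± 0.0047 (SD, n = 3) in LMB, and with auxin to 1.44 ± 0.015 (SD, n = 3).

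Levels of single members were compared per kilobase of coding sequence, since the genes differ in length and many have long alternative exons that are hardly used. On this scale the median member was at 1351 CPM per coding kb, and the upper quartile was 1.64 times the lower quartile. RPL41, which encodes the smallest ribosomal protein, was highest at 4002 CPM per coding kb, followed by RPS18 at 2741 and RPS27A, which encodes a ubiquitin joined to a small-subunit protein, at 2550.3. The counts also cover untranslated parts, and the coding sequence of RPL41 has 75 bases in a canonical transcript of 676. Its first place therefore goes with its short coding sequence. Per kilobase of all annotated exons RPL41 was at 271 CPM, rank 26. The stalk genes RPLP0, which anchors the stalk, and RPLP2, which helps recruit translation factors, were at 2130.3 and 2105, and their partner RPLP1 was at 1489.7. RPS27L, a paralog of RPS27 that responds to p53, was lowest at 114, well below RPS27 itself at 1816. RPL28 (269), RPL36AL (368) and RPL22 (539) came next from below, and RPL36A, the paralog of RPL36AL, was at 656. Per kilobase of all annotated exons the order was another: RPS12 (1279 CPM per exonic kb), RPS2 (737) and RPS18 (681) were highest, and RPS27L (3.25), RPL28 (17.4) and RPS29 (32.1) lowest. RPS29 stood at rank 14 on the coding scale with 1881 CPM per coding kb, so its low place per exonic kb goes with its exon length of record and not with a low count.

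**Figure D1:**
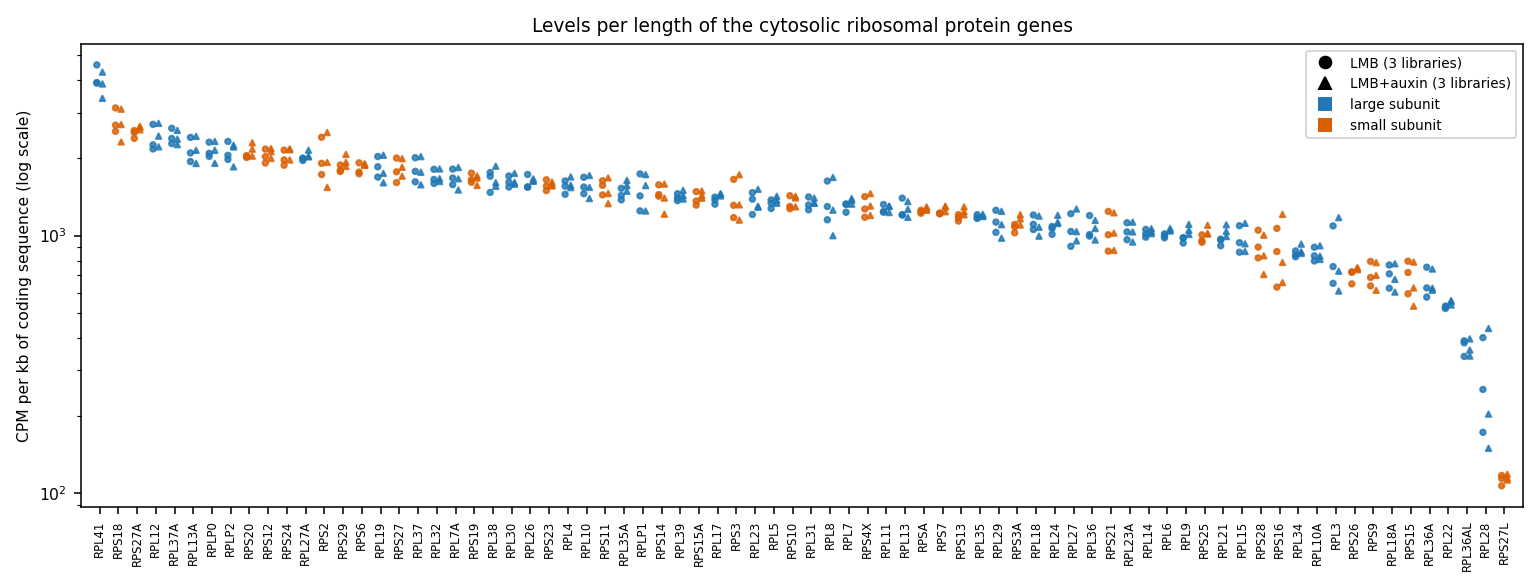
Level of 76 of the 79 members in each library, in CPM per kilobase of coding sequence on a log axis, ordered by the mean; circles are the 3 LMB libraries, triangles the 3 LMB+auxin libraries, blue the large and orange the small subunit. Most members lie close to the median of 1351 over all 79, and circles and triangles of a gene overlap in most columns. RPL41, with a coding sequence of 75 bases, stands highest at 4002 and RPS27L lowest at 114.

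Paralogs that are used in particular tissues were at or under the limit of detection. RPL3L, the heart and muscle paralog of RPL3, had 21, 18 and 24 counts in LMB and 22, 17 and 12 in LMB+auxin, which is under 1 CPM. RPL39L, known from testis and some tumors, had 2 counts in LMB and 2 in LMB+auxin over 3 libraries each, and RPL10L, the testis paralog of the X-linked RPL10, had none in any library. These 3 genes are the candidates by symbol that did not pass the filter.

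The largest differences among the libraries followed the replicate number and not the treatment. RPL3, a protein close to the peptidyl transferase center, was at 789, 1318 and 916 CPM in LMB replicates 1 to 3 and at 736, 1419 and 879 CPM in LMB+auxin. Replicate 2 was the highest library of either group, and the groups covered the same range. RPL28 went further, with 70.8, 165 and 104 CPM in LMB, and 61.4, 179 and 83.4 CPM with auxin. RPS16 was at 276, 467 and 379.7 CPM in LMB and at 288, 529 and 344 CPM in LMB+auxin, and RPS2 at 1516, 2116 and 1676 CPM in LMB and at 1351, 2207 and 1689 CPM in LMB+auxin. The mean of replicate 2 was the highest of the 3 replicate means in 64 of 79 members, compared with 6582 of all 16974 genes.

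Differences between replicate numbers passed an adjusted p of 0.05 in 45 of 79 members (edgeR F test, Benjamini-Hochberg over all genes), where 33.7% of all tested genes did. The log2 range between replicate means had a median of 0.18 over members and 0.21 over all genes, and it reached 1.38 in RPL28 and 0.84 in RPL3. The treatment difference exceeded the range between replicate means in 21 of 79 members and in 3115 of all genes. Some members hardly moved between replicates. RPL35 stayed between 429.9 and 446 CPM in all 6 libraries, RPSA, the laminin receptor protein of the small subunit, between 1080.0 and 1143 CPM, and RPS27L between 26.9 and 29.9 CPM.

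**Figure D2:**
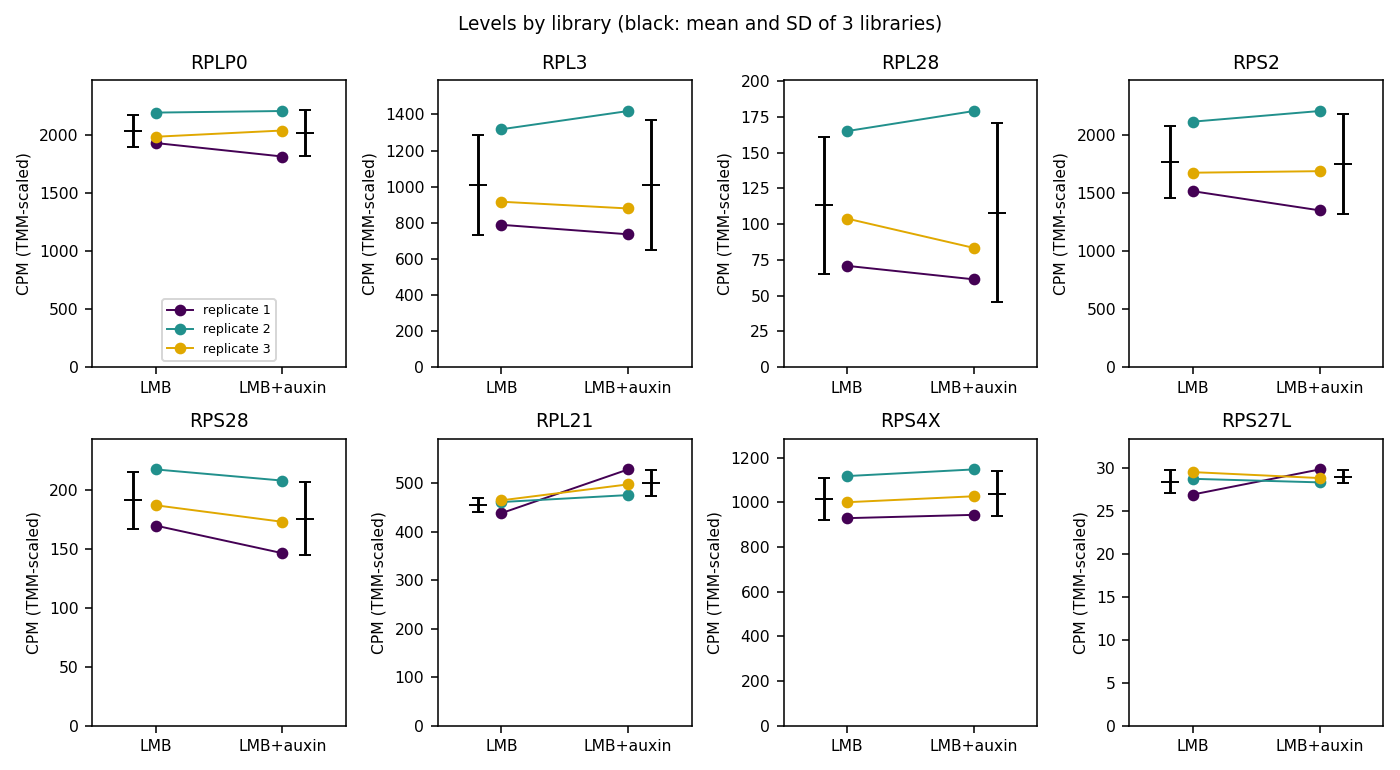
TMM-scaled CPM of 8 members in each library; lines join libraries with the same replicate number, and black bars give the mean and SD of the 3 libraries of a group. Replicate 2 is highest in RPLP0, RPL3, RPL28, RPS2, RPS28 and RPS4X in both groups, whereas RPL21 runs from 438 to 465 CPM in LMB and from 476 to 529 CPM in LMB+auxin.

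After depletion of TPR the ribosomal protein genes stayed close to their level in LMB. Log2 fold changes ran from -0.12 in RPS28 to 0.14 in RPL21, with a median of 0.025 over the 79 members, against -0.0027 over all tested genes and 0.0070 over protein-coding genes. In the fit without the replicate number, 0 of 79 members were called at an adjusted p under 0.05 and a change of 1.3-fold or more, beside 1 gene or 0.00589% of all genes tested with edgeR. The smallest adjusted p of a member was 0.95. Within replicate pairs 1 to 3 the members' median was 0.027, 0.014 and 0.020, where that of all tested genes was -0.014, 0.012 and -0.00075, and with the replicate number in the fit and pair 1, 2 or 3 left out it was 0.017, 0.036 and 0.026. In the fit without the replicate number it became -0.027 when LMB replicate 1 was left out and -0.036 when LMB+auxin replicate 2 was left out, which leaves the groups with unequal sets of replicate numbers. Similar medians did not mean that single members agreed between pairs. Across the 79 members the log2 fold changes had a Pearson r of 0.25 between pairs 1 and 2, 0.48 between 1 and 3, and -0.35 between 2 and 3. No member had an unadjusted p under 0.05 in edgeR, where 4.37% of all genes did. DESeq2 also called 0 members. With the replicate number in the fit, again 0 of 79 members were called, beside 1.18% of all genes, of which 51 were higher and 150 lower.

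The bounds on the members were narrow. With the replicate number in the fit, the 95% interval of the fold change lay within 1.3-fold either way (0.38 on the log2 scale) for 79 of 79 members, and for 75.6% of all genes. Without it this held for 71 of 79 members and 57.1% of all genes. The standard error with the replicate number was 0.042 to 0.063 on the log2 scale for members, with a median of 0.043, compared with a median of 0.071 over all genes, which include many with lower counts. Differences under 1.3-fold were therefore within reach of this fit, and 1 member, RPL21, passed the adjusted p by itself on the higher side, where 1.11% of all genes did. On the lower side 0 members passed, where 3.25% of all genes did. Without the libraries of replicate 2, RPL21 no longer passed, and 2 members did, RPL28 among them on the lower side (adjusted p = 0.025), while 0 members passed without replicate 1 or replicate 3. At an unadjusted p under 0.05, 11 members were higher (8.10% of all genes) and 6 lower (11.8% of all genes). The members' counts on both sides are near the share of all genes or under it, apart from the higher side at the unadjusted p, at 11 of 79.

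**Figure D3:**
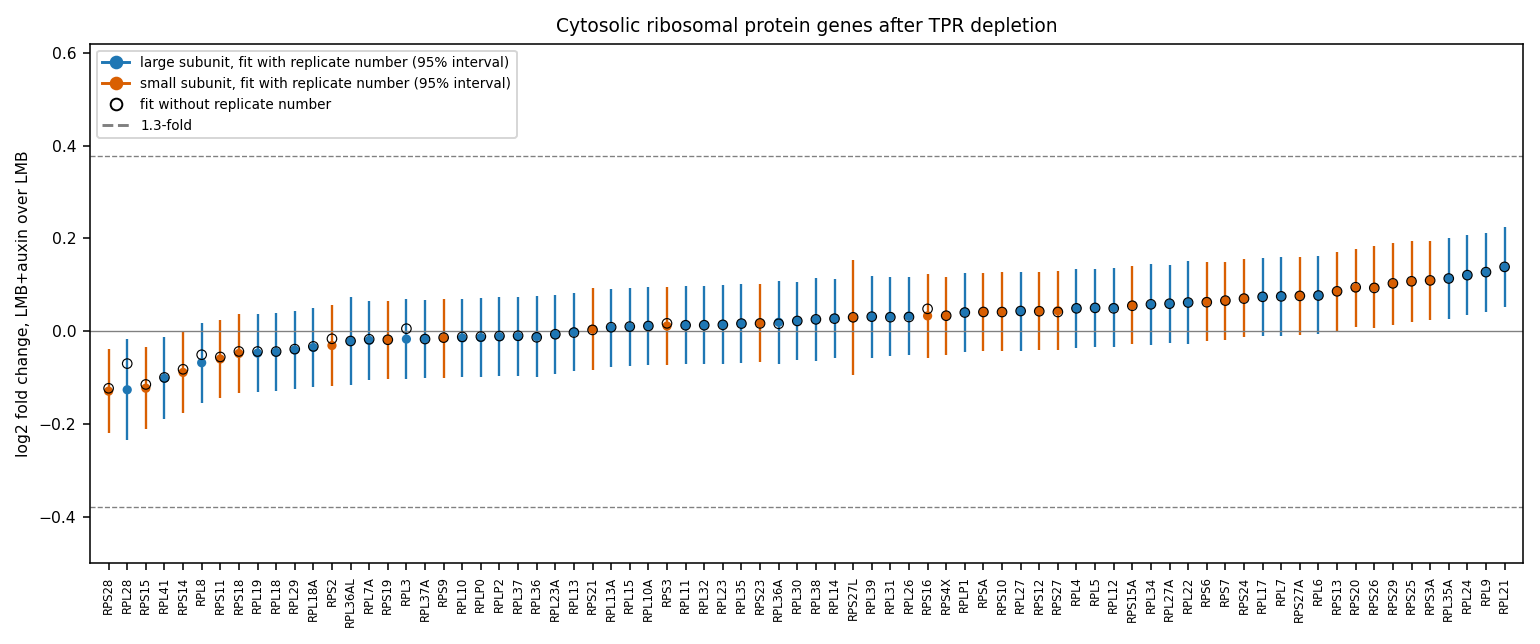
Log2 fold change of the 76 members drawn, LMB+auxin over LMB; filled points with bars are the fit with the replicate number and its 95% interval, open circles the fit without it, and dashed lines mark 1.3-fold (0.38). All intervals lie between the dashed lines, and the fits part most in RPL28, at -0.13 with and -0.070 without the replicate number.

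The groups did not overlap in 11 members, in each case with the lowest LMB+auxin library above the highest LMB library (4.90% of all genes), and in 0 members the other way round (6.63% of all genes). In 25 members the LMB+auxin library was the higher in 3 of 3 replicate pairs (21.4% of all genes), and in 7 members in 0 of 3 (20.5% of all genes). RPL21 (chr13:27251362-27256691, plus strand, GRCh38, 6 exons in its canonical transcript, with SNORD102 and SNORA27 in its introns) encodes a large-subunit protein. It was at 438, 461 and 465 CPM in LMB and at 529, 476 and 498 CPM in LMB+auxin, which do not overlap. Its log2 fold change was 0.14 ± 0.044 (SE) with the replicate number (adjusted p = 0.049, edgeR) and 0.14 ± 0.066 without it (adjusted p = 0.95). It is under 1.3-fold in either fit. Among the counted genes 133 are pseudogenes named after RPL21, processed or not. Their summed counts came to 2.47% of its own, and reads from such copies cannot be told apart with certainty.

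RPL9 and RPL24, both of the large subunit, had the next lowest p among the members that were higher. RPL9 was at 539, 564 and 566 CPM in LMB and at 636, 604 and 582 CPM in LMB+auxin (log2 fold change 0.13 ± 0.043 with the replicate number, adjusted p = 0.073). RPL24 was at 476, 511 and 502 CPM in LMB and at 565, 530.2 and 524 CPM in LMB+auxin (0.12 ± 0.043 with the replicate number, adjusted p = 0.092, edgeR). Neither gene's groups overlapped, and neither passed the test.

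At the low end, RPS28, a small-subunit protein near the mRNA exit, was at 169.6, 217 and 187 CPM in LMB and at 146, 208 and 173 CPM in LMB+auxin. Each pair was lower with auxin, but the groups overlapped, and the log2 fold change was -0.13 ± 0.046 with the replicate number (adjusted p = 0.087). Pseudogenes named after RPS28 held counts equal to 14.2% of its own, and its exons overlap KANK3 and NDUFA7 on the other strand. RPS15, which takes part in export of the pre-40S particle, was at 258, 346 and 313 CPM in LMB and at 231, 343 and 272 CPM in LMB+auxin (-0.12 ± 0.045 with the replicate number, adjusted p = 0.094, edgeR). Both genes were lower in 3 of 3 pairs, and neither passed the test. RPL41 was also lower in each pair, at 294, 345 and 293 CPM in LMB and at 256, 323 and 291 CPM in LMB+auxin (-0.10 ± 0.044 with the replicate number).

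The large subunit had a median log2 fold change of 0.014 over 47 members, 30 of them above 0, and the small subunit one of 0.041 over 32 members, 23 of them above 0. In the stalk, RPLP0 was at 1929, 2191 and 1983 CPM in LMB and at 1813, 2204 and 2036 CPM in LMB+auxin, the highest count of the family. Without the replicate number in the fit its log2 fold change was -0.012 ± 0.088, with 1 pair lower and 2 pairs higher with auxin. RPLP2 (-0.011) and RPLP1 (0.040) likewise differed by less than their standard errors. RPL10, which completes the large subunit and bears on release of the export adapter NMD3, was at -0.012, and RPL7A at -0.017. Both were under their standard errors of 0.090 and 0.089 in that fit.

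RPL5 and RPL11 form, with 5S ribosomal RNA, a particle that binds and inhibits the p53 ligase MDM2 when ribosome assembly is disturbed, and RPL23 and RPL26 also bear on p53. RPL5 was at 1134, 1225 and 1189.8 CPM in LMB and at 1221, 1265 and 1189 CPM in LMB+auxin. Its log2 fold change was 0.050 ± 0.065 without the replicate number in the fit and 0.050 ± 0.043 with it, which is beyond the standard error. RPL11 (0.013), RPL23 (0.014) and RPL26 (0.030), given without the replicate number, were within their standard errors in both fits. MDM2 RNA was at -0.040 ± 0.081 and the p53-responsive RPS27L at 0.030 ± 0.075, both without the replicate number. None of these 6 genes passed the test in either fit.

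Members with known roles outside the core of the ribosome were likewise called in neither fit. RPL13A, part of a translational silencer in myeloid cells, was at 0.0085, and RPL10A and RPL38, which have been tied to translation of particular messages, at 0.011 and 0.025. RPS6, the S6 kinase substrate, was at 1297, 1431 and 1317 CPM in LMB and at 1398, 1419 and 1406 CPM in LMB+auxin. Its log2 fold change was 0.062 ± 0.066 without the replicate number in the fit and 0.064 ± 0.043 with it. RPS3, a protein of the mRNA entry site with a role in DNA repair, was at 0.017 ± 0.16 without the replicate number. RPS14 (-0.082) and RPS19 (-0.019), which are tied to macrocytic anemia and to Diamond-Blackfan anemia, an inherited red cell disorder, RPS26 (0.093), RPS4X (0.033), RPL4 (0.049), RPL39 (0.031), RPSA (0.041) and the ubiquitin fusion RPS27A (0.076) were among them. Among pairs of paralogs, RPL36A was at 0.016 and RPL36AL at -0.021, and RPS27 at 0.041 beside 0.030 for RPS27L, with each difference inside the standard errors of its genes.

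RPL22 and its paralog RPL22L1, which lies outside the symbol rule, are known to be able to replace each other in the ribosome. RPL22 was at 200.2, 204 and 202 CPM in LMB and at 215, 206 and 213 CPM in LMB+auxin, a log2 fold change of 0.062 ± 0.045 with the replicate number (adjusted p = 0.46). RPL22L1 was at 163, 169 and 162 CPM in LMB and at 222, 175 and 199 CPM in LMB+auxin. It was higher in 3 of 3 pairs, by 0.45, 0.051 and 0.30 on the log2 scale, and its groups did not overlap. With the replicate number its log2 fold change was 0.27 ± 0.049 with an adjusted p of 0.00014 in edgeR, under 1.3-fold, and without it the adjusted p was 0.95. RPL22L1 was the sole gene to pass the adjusted p among 9 ribosomal genes outside the rule, whose median was 0.0045. These 9 include readthrough genes that share exons with members, and the median is the value of the readthrough gene RPL36A-HNRNPH2. FAU, which encodes a ubiquitin-like protein fused to a ribosomal protein, was at -0.073, and RACK1, the kinase receptor on the small subunit, at -0.034. The readthrough gene RPS10-NUDT3 was at 646, 713 and 634 CPM in LMB, nearly the values of RPS10 (642, 707 and 629 CPM), so reads in shared exons appear under both genes. RPL17-C18orf32 was at 706, 759 and 739 CPM in LMB, beside 730, 778 and 759 CPM for RPL17. RPL36A-HNRNPH2 was at 207, 274 and 225 CPM in LMB, beside 183, 240 and 199 CPM for RPL36A. The 9 genes are therefore not all separate from the members.

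The fold changes followed the base composition of the coding sequence. Over the 79 members the log2 fold change with the replicate number and the GC content of the coding sequence had a Pearson r of -0.69 and a Spearman rho of -0.70, and over 12663 protein-coding genes an r of -0.45. These are correlations across genes of the same 6 libraries, which are not independent replicates, so no p is given. The 35 members with coding GC under 50% had a median of 0.055 on the log2 scale, and 33 were above 0, and the 44 members with 50% or more had one of -0.010, with 20 above 0. The relation with GC was strongest in replicate pair 1 (r = -0.76), and weaker in pair 2 (r = -0.19) and pair 3 (r = -0.31). GC content also went with the replicate number: the difference of replicate 2 over replicate 1 had an r of 0.58 with coding GC over members and 0.19 over protein-coding genes.

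RPL21, RPL9 and RPL24 have coding sequences of 43.5%, 43.6% and 48.6% GC, and RPS28 and RPS15 of 62.3% and 63.0%. With an offset that removes the smooth relation to GC in each library, chosen after the data were seen, the members' correlation with GC was -0.068 and their median log2 fold change 0.0089, with 45 above 0 and 34 below. RPL21 then had a log2 fold change of 0.086 ± 0.029 (adjusted p = 0.093, edgeR with the replicate number), so its call at the adjusted p was lost. RPL41 was instead the only member past the adjusted p, at -0.12 ± 0.032 (adjusted p = 0.037, edgeR with the replicate number). Its offset rests on the GC content of 75 coding bases in a canonical transcript of 676, most of which it leaves out. RPL22L1 kept 0.22 ± 0.039 with an adjusted p of 0.0022. Whether GC content has a part in the fold changes beyond these values was not tested.

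**Figure D4:**
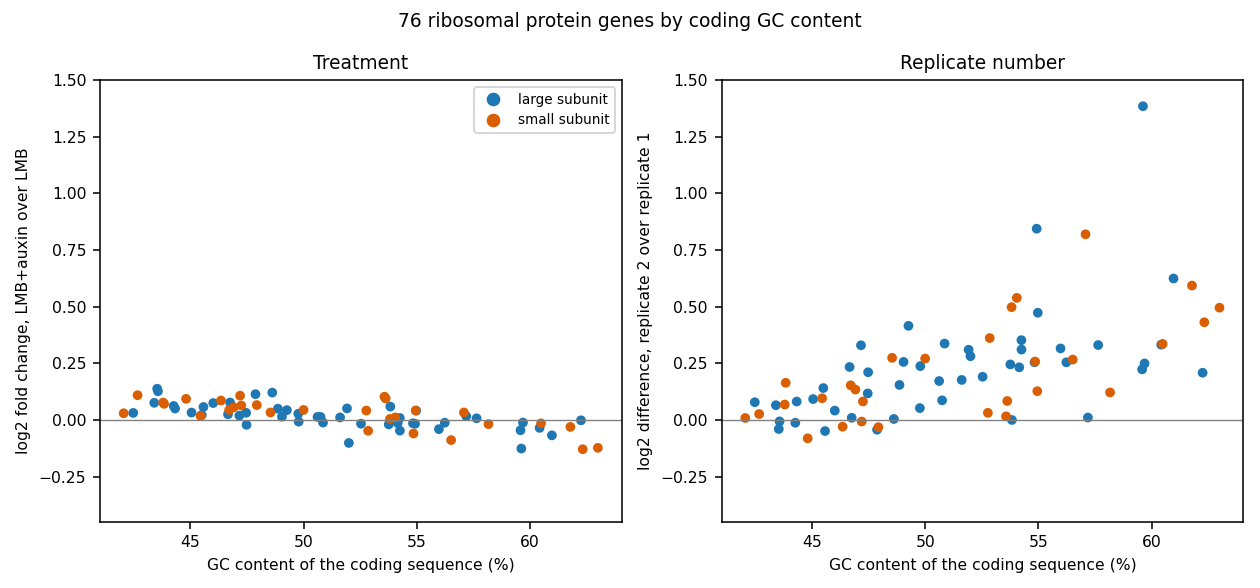
Left, log2 fold change of LMB+auxin over LMB, and right, log2 difference of replicate 2 over replicate 1, both from the fit with the replicate number, against the GC content of the coding sequence in percent; each point is a member (76 drawn), blue for the large and orange for the small subunit. Points on the left slope downward (r = -0.69 over all 79) within a narrow band and points on the right slope upward (r = 0.58 over all 79) over a wider range, up to 1.39 in RPL28.

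Other features of the genes moved less with the fold change. The 42 members with a C start and pyrimidines had a median of 0.029 and the 22 matched members with another start one of 0.021. The 22 include members whose RefSeq site lies far from the annotated start, such as RPS29 and RPL6. Introns of 28 members hold small nucleolar RNAs, which guide modification of ribosomal RNA, with 5 in RPL4, and the medians were 0.019 with and 0.027 without such RNAs. The 44 members whose exons share bases with another annotated gene had a median of 0.028, and the 35 without one of 0.013. Coding length had an r of 0.073 with the log2 fold change over the 79 members.

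The members were set beside genes that share their biology. Among 19 tested translation factors and other genes whose messages carry a TOP tract, the median log2 fold change was 0.063, 16 were above 0, and EIF4A2, a helicase of translation initiation, passed the adjusted p with the replicate number (492, 543 and 488 CPM in LMB, against 586, 579 and 518 CPM with auxin, 0.14 ± 0.043, adjusted p = 0.035). Its adjusted p was 0.95 without the replicate number and 0.055 with the replicate number and the GC offset (edgeR), so that call was lost in both. EEF1A1, the most abundant of them, was at 8089, 9154 and 8035 CPM in LMB, and at 7582, 9257 and 8224 CPM with auxin (-0.012 ± 0.093 without the replicate number), with replicate 2 highest, as in most members. The 78 genes of the mitochondrial ribosome, whose proteins are made in the cytosol and imported, had a median of 0.037, and none passed the adjusted p in either fit. Replicate 2 was the highest in 15 of these 78 genes, in contrast to 64 of the 79 cytosolic members.

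Among 14 regulators the median was 0.025, and none passed the adjusted p in either fit. LARP1, the TOP-binding protein, was at 246, 309 and 272 CPM in LMB and at 238, 335 and 274 CPM in LMB+auxin, and MYC, a driver of ribosomal gene transcription, at 47.0, 73.1 and 52.3 CPM in LMB and at 45.3, 66.3 and 52.5 CPM in LMB+auxin. Both were highest in replicate 2 of either group, but over the 14 regulators replicate 2 was the highest in 5, replicate 1 in 4 and replicate 3 in 5. RPS6KB2, an S6 kinase, was at 50.5, 48.5 and 49.9 CPM in LMB and at 42.5, 44.7 and 45.9 CPM in LMB+auxin, without overlap (-0.16 ± 0.056 with the replicate number, adjusted p = 0.078). Among 21 chaperones, importins and assembly factors the median was 0.081 with 14 above 0, and none passed the adjusted p. NMD3, the adapter that carries the pre-60S particle to CRM1, was at 115, 116 and 118 CPM in LMB and at 128, 123 and 123 CPM in LMB+auxin, which do not overlap (0.10 ± 0.048 with the replicate number, adjusted p = 0.20, edgeR).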

How the data were processed

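RNA was measured in 6 libraries of total RNA depleted of ribosomal RNA. The deposited table holds unnormalized counts for each Ensembl gene, which the authors made with STAR on GRCh38 and featureCounts. The submitters' processing notes name STAR 2.6.1c and featureCounts 1.5.2, other versions than the study's methods. For the strand setting and for multi-mapping reads the choice is not given in the sources used here. Symbols, coordinates, exons and coding sequences come from GENCODE 44, a later release than Ensembl 87 used for counting, and start sites from RefSeq (GRCh38.p14).

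Counts of the 16974 genes with CPM above 1 in at least 3 libraries were tested in R 4.3.3 by edgeR 4.0.16 (quasi-likelihood, robust) after TMM scaling, with Benjamini-Hochberg adjustment over all tested genes. A gene was called at an adjusted p under 0.05 and a change of at least 1.3-fold. The standard error is the log2 fold change over the root of F. DESeq2 1.42.0, other scalings and filters, left-out libraries and a GC offset (lowess over coding GC per library, protein-coding genes only) were alternatives, and code was tested on simulated data. Deviations from the group means correlated over all tested genes at 0.53, 0.69 and 0.27 for libraries with equal numbers 1 to 3, all above 0.1. The fit with the replicate number as a block is therefore given where it changes a result. Libraries with unequal numbers correlated at -0.57 to 0.15, and LMB 1 with LMB+auxin 3 (0.15) and LMB 3 with LMB+auxin 1 (0.14) also exceeded 0.1. Over the members the values for equal numbers were 0.88, 0.95 and -0.099. There LMB 1 with LMB+auxin 3 was at 0.66 and LMB 3 with LMB+auxin 1 at 0.42, so the members do not show the pairing of number 3.

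Named genes are fixed ones with known roles (30 members and 3 paralogs), the 3 highest and 3 lowest in fold change and in level per exonic kb, every called member, and the 3 lowest p in each direction with the block. RPS16 and RPL35 lie outside this rule and were picked after their values were seen. Also outside it, RPL6 and RPL15 are named for the distance of their RefSeq sites, and RPS10 and RPL17 beside their readthrough genes. Listed genes outside the family are named by role or because they passed a test. A few genes that enter the counts and medians are not reported by name here or drawn. The members and lists were chosen with earlier results of these data known.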

Additional observations from a re-analysis of the deposited data

How the results depend on the processing

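No member was called at the adjusted p and 1.3-fold under any alternative. The number of genes called over all tested genes was 1, and became 201 with the replicate block, 11 with DESeq2, 0 with library size alone, 39 with no filter on low counts, 0 with CPM above 5, 30 and 254 with the replicate block in DESeq2 and with library size alone, 201 with the block and TMM factors computed without the ribosomal protein genes, and 0 to 158 with libraries left out. The block and GC offset covered only 12663 protein-coding genes and called 66 of them, where the block alone called 106 of them. Members past the adjusted p alone numbered 0, and 1 with the replicate block (RPL21), 2 with the block and library size alone (both lower), 1 with the block and TMM without ribosomal protein genes (RPL21), 1 with the GC offset (RPL41, lower) and 0 to 2 with libraries left out. The median log2 fold change of the members, 0.025, was 0.032 with DESeq2, with its size factors in edgeR and with the block in DESeq2, 0.013 with library size alone with and without the block, 0.018 with CPM above 5, 0.0089 with the GC offset, and -0.036 to 0.084 with libraries left out.

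Of 820 recomputed log2 fold changes of 41 named genes, 91 changed sign, 65 of them with libraries left out, and 14 genes never did. RPL3 was at -0.017 with the replicate block, -0.010 with the block in DESeq2, -0.017 with the block and TMM without ribosomal protein genes, -0.0026 with CPM above 5, and -0.0096 and -0.029 with library size alone without and with the block. With library size alone, RPL10A was at -0.0012 with or without the block, RPL13A at -0.0044 without and -0.0049 with it, and RPS3 at -0.0012 with it. With the block and GC offset, RPLP2 was at 0.0060, RPL3 at -0.010, RPL5 at -0.00051, RPL10A at -0.0081, RPL11 at -0.012, RPL23 at -0.021, RPL26 at -0.017, RPL36A at -0.025, RPL38 at -0.021, RPL39 at -0.021, RPS4X at -0.0053, RPS19 at 0.020, RPS27L at -0.022, RPS2 at 0.048 and RPS12 at -0.0019. With libraries left out, values ran from -0.065 to 0.18 in RPLP1, -0.32 to 0.25 in RPL3, -0.042 to 0.068 in RPL10A, -0.012 to 0.053 in RPL11, -0.084 to 0.11 in RPL13A, -0.064 to 0.083 in RPL23, -0.076 to 0.14 in RPL36A, -0.056 to 0.11 in RPL38, -0.16 to 0.17 in RPS3, -0.043 to 0.11 in RPS4X, -0.031 to 0.13 in RPS27, -0.029 to 0.069 in RPS27L, -0.079 to 0.060 in RPLP0, -0.066 to 0.073 in RPLP2, -0.092 to 0.052 in RPL7A, -0.090 to 0.058 in RPL10, -0.083 to 0.027 in RPL36AL, -0.044 to 0.023 in RPS19, -0.65 to 0.31 in RPL28, -0.15 to 0.057 in RPS18, -0.22 to 0.14 in RPS2, -0.18 to 0.011 in RPS14 and -0.28 to 0.0093 in RPS15. The cause was not tested. Reads that cannot be told apart from those of pseudogenes or of overlapping genes limit single values. The summed counts of pseudogenes named after RPS2 equal 15.5% of its count.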
